A study of Mus musculus with 6 samples.

Results

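The genes for 9 transcription factors that set macrophage identity were chosen by name from 52550 genes counted in macrophages with and without the scavenger receptor MSR1, and 9 of 9 had enough counts to be tested. They were Spi1 (PU.1), Cebpa, Cebpb, Maf, Irf5, Irf8, Klf4, Bhlhe40 and Bhlhe41, a list of names set without a threshold on expression. The macrophages came from C57BL/6 mouse bone marrow that had been grown for 7 days in 25 ng/ml M-CSF, the growth factor that drives marrow cells into the macrophage line. They were then kept for 48 h in a transwell, a dish with a porous membrane, together with bone marrow mesenchymal stromal cells (BMSCs). The 3 MSR1 KO libraries came from mice lacking MSR1 and the 3 MSR1 WT libraries from wild-type mice of the same background, and both genotypes received M-CSF and BMSCs. Macrophages cultured alone were not analysed here. The study's text calls the libraries of a genotype biological replicates, but the labels do not name the mice behind them, so the p-values measure the spread between these libraries. Because the knockout was carried by the mice, effects during the culture cannot be told apart from effects before it.

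These factors act in layers. PU.1 is the ETS factor that opens the enhancers of myeloid cells, and C/EBPα and C/EBPβ bind beside it, the former being known mainly from progenitors and neutrophils and the latter from mature macrophages and inflammatory gene expression. IRF8 guides progenitors towards the monocyte line and binds DNA together with PU.1, whereas IRF5 acts below Toll-like receptors, switches on inflammatory cytokine genes and is linked to the M1 state. MAF restrains self-renewal and goes with a resident, anti-inflammatory program. KLF4 is known from monocyte differentiation and the M2 state. BHLHE40 and BHLHE41 are repressors that bind E-box sequences, take part in the circadian clock and keep macrophages able to proliferate.

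The libraries held 36143518 to 47417448 counts. Msr1 itself, the gene that the genotype labels name, had 49.3 ± 8.51 CPM (a gene's count scaled to a fixed library total) in MSR1 KO macrophages against 199.7 ± 20.9 CPM in MSR1 WT macrophages (SD, n = 3 each). Its log2 fold change was -2.02 (95% confidence interval -2.33 to -1.71, adjusted p = 0.0012 by edgeR's quasi-likelihood test with Benjamini-Hochberg adjustment). CPM are scaled by TMM, a factor per library that evens out composition, and each log2 fold change is MSR1 KO over MSR1 WT. All 10 macrophage marker genes were detected, with a summed level of 23926 to 25279 CPM in MSR1 KO macrophages and 24673 to 27554 CPM in MSR1 WT macrophages. Markers of other cells were present as well. The 12 stromal markers summed to 1511 to 2004 CPM in MSR1 KO macrophages against 1977 to 2524 CPM in MSR1 WT macrophages. None was at 0, and 3 of the 12 were lower (Pdgfra, Pdgfrb and Cxcl12). By edgeR, 1 was higher and 6 were lower at an unadjusted p under 0.05, and DESeq2 called 1 higher and 5 lower. Osteoclast markers summed to 361 to 480.2 CPM against 507 to 592 CPM (Acp5 and Ctsk lower, Calcr at 0), dendritic cell markers to 56.7 to 71.1 against 61.5 to 87.3 CPM, and mast cell and basophil markers to 29.7 to 31.9 against 13.7 to 23.5 CPM (Kit higher). B cell markers summed to 19.1 to 22.9 against 15.4 to 20.2 CPM, T and NK cell markers to 13.6 to 16.1 against 4.32 to 11.5 CPM (Klrb1c higher), and erythroid markers to 0.98 to 2.62 against 1.92 to 3.29 CPM (with Hbb-bs and Hbb-bt at 0). Their part in the results on the 9 factors was not tested.

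Among the 9 factors, Irf5 alone passed the test in the direction of the MSR1 KO libraries and none passed in the direction of the MSR1 WT libraries. Thus 1 of 9 was higher at an adjusted p under 0.05 by edgeR's quasi-likelihood test with Benjamini-Hochberg adjustment, against 2.25% of the 16402 tested genes. None was lower, against 2.66% of all tested genes. At an unadjusted p under 0.05 by edgeR, 3 of 9 were higher against 8.65% of all tested genes, and 2 of 9 were lower against 10.2%. DESeq2's Wald test called 2 of 9 higher against 4.57% of all genes to which it gave an adjusted p, and 1 of 9 lower against 5.38%. The libraries of both genotypes did not overlap for 4 of the 9 (Spi1, Cebpb, Irf5 and Bhlhe41), against 25.5% of all tested genes. By the study's definition of a differentially expressed gene (DEG), a fold above 1.5 with an unadjusted p under 0.05, 1 of 9 passed, against 8.64% of all tested genes. The median log2 fold change was 0.09 over the 9 factors and -0.00 over all tested genes, and the medians of its absolute size were 0.30 and 0.18. With 9 genes, each of these shares rests on single genes.

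**Figure D1:**
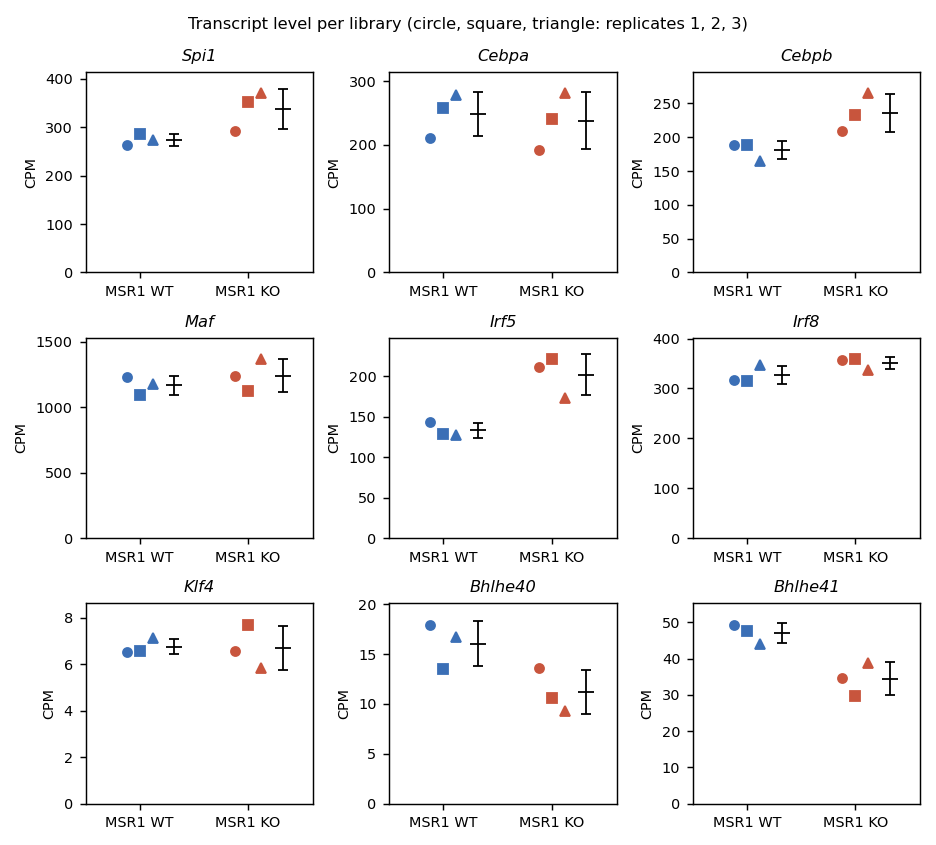
Level of each of the 9 factors in each library, in CPM, on a linear axis that starts at 0 in each panel. Circles, squares and triangles are the first, the second and the third library of each genotype, and bars beside them are the mean and SD of 3 libraries. The MSR1 KO points lie above all MSR1 WT points for Spi1, Cebpb and Irf5 and below all of them for Bhlhe41.

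**Figure D2:**
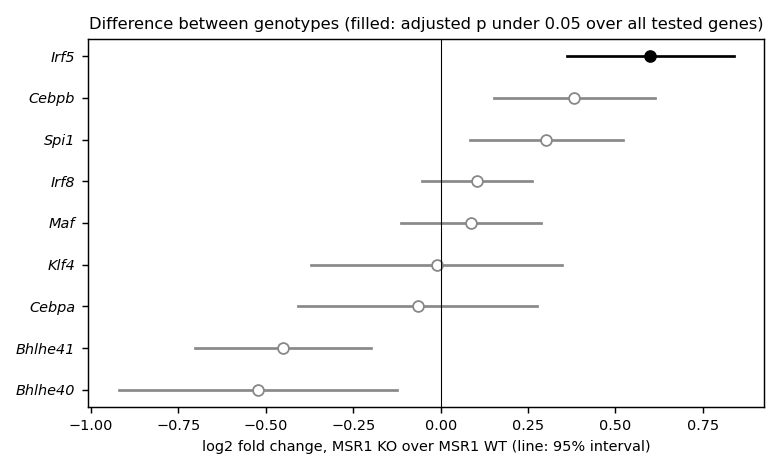
Log2 fold change (MSR1 KO over MSR1 WT) of each of the 9 factors by edgeR's quasi-likelihood fit. Points are estimates, lines are 95% confidence intervals, and the filled point (Irf5) has an adjusted p under 0.05 over all tested genes. The interval lies above 0 for Spi1 (0.084 to 0.521), Cebpb (0.152 to 0.613) and Irf5 (0.361 to 0.838), and below 0 for Bhlhe40 (-0.921 to -0.125) and Bhlhe41 (-0.703 to -0.200).

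The factors differed widely in how much RNA they had. Per kilobase of exon, the MSR1 WT libraries had 142 ± 8.83 CPM of Maf, 120.3 ± 9.02 of Cebpb, 102 ± 4.41 of Spi1 and 94.4 ± 13.1 of Cebpa. Irf8 with 46.3 ± 2.60 and Irf5 with 45.8 ± 3.14 CPM per kilobase followed. Bhlhe41 with 7.00 ± 0.397, Bhlhe40 with 3.41 ± 0.484 and Klf4 with 2.22 ± 0.108 CPM per kilobase came last (SD, n = 3). The ranges of the libraries overlapped for Spi1 and Cebpa and for Irf8 and Irf5, so the order within these pairs was not resolved. The first 6 factors lay between the 94.4th and the 98.4th percentile of the tested genes over all libraries, whereas Bhlhe41 lay at the 60.4th, Bhlhe40 at the 44.2nd and Klf4 at the 38.9th percentile.

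In the MSR1 KO libraries Cebpb with 157 ± 18.5 and Maf with 151 ± 15.0 CPM per kilobase exchanged places, with overlapping ranges. Irf5 with 69.4 ± 8.70 CPM per kilobase stood above Irf8 with 49.7 ± 1.71, without overlap. Irf5 also came within the range of Cebpa, which had 90.2 ± 16.9 CPM per kilobase. The ranges of Maf and Spi1 and those of Bhlhe40 and Klf4 overlapped too. Levels per length depend on the transcript model. With the longest transcript in place of all exons, Irf8 had 101 CPM per kilobase against 90.0 for Irf5 in MSR1 KO macrophages, and 6 of the 9 factors took another rank there and 2 of the 9 in MSR1 WT macrophages.

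**Figure D3:**
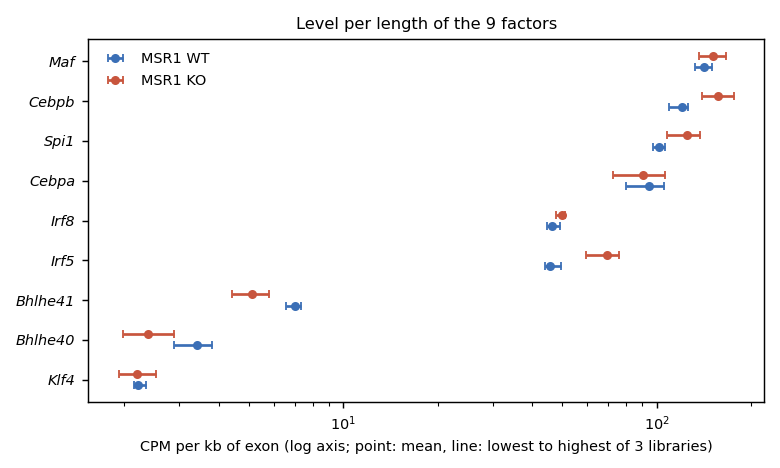
Level per length of the 9 factors, in CPM per kilobase of exon on a log axis, for both genotypes. Points are means and lines run from the lowest to the highest of the 3 libraries. Maf, Cebpb, Spi1, Cebpa, Irf5 and Irf8 lie at 43.9 or higher in every library, and Bhlhe41, Bhlhe40 and Klf4 at 7.34 or lower.

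Irf5 was the factor that rose. It had 7568, 8803 and 8044 counts in MSR1 KO macrophages against 5921, 6079 and 5268 in MSR1 WT macrophages, which is 211, 221 and 173 CPM against 144, 128 and 128 CPM. Every MSR1 KO library was above every MSR1 WT library, and the third MSR1 KO library was the closest to them. The level was 202 ± 25.3 CPM against 133 ± 9.12 CPM (SD, n = 3 each), or a log2 fold change of 0.60 (SE 0.104, 95% confidence interval 0.361 to 0.838). The adjusted p was 0.024 by edgeR's quasi-likelihood test with Benjamini-Hochberg adjustment, and the fold of 1.51 was just past the study's limit of 1.5. Since these are bulk samples, a change in the share of cells of a type and a change in RNA per cell cannot be told apart. The call depended on single libraries. It was lost without the first MSR1 KO library (log2 fold change 0.57, adjusted p = 0.081 by the same edgeR test), the second MSR1 KO library (0.53, adjusted p = 0.058), the first MSR1 WT library (0.66, adjusted p = 0.074) or the second MSR1 WT library (0.57, adjusted p = 0.082). It held without the third MSR1 KO library (0.70, adjusted p = 0.019) and without the third MSR1 WT library (0.57, adjusted p = 0.046), both by edgeR. Over all alternatives the adjusted p ran from 2.7e-05 to 0.082 (edgeR and DESeq2).

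Irf5 (ENSMUSG00000029771.12) lies on the plus strand of chromosome 6 from 29526625 to 29541871 in GRCm38. Of its exon bases, 14.1% are shared with Tnpo3 on the other strand, and whether the counting used strand is not given in the sources used here. Tnpo3, which encodes a nuclear import receptor, had 64.3 ± 6.95 CPM in MSR1 KO and 74.5 ± 7.06 CPM in MSR1 WT macrophages, so its mean differed in the opposite direction to Irf5 (log2 fold change -0.21, adjusted p = 0.34 by edgeR with Benjamini-Hochberg adjustment). Markers of related blood cells were read beside Irf5. The 7 monocyte markers summed to 336 to 437 CPM in MSR1 KO and 239 to 348 CPM in MSR1 WT macrophages. Of the 7, 3 were higher (Ly6c2 and Plac8 among them). By edgeR, 1 of the 7 was lower at an unadjusted p under 0.05, and DESeq2 also called 1 lower. The 10 neutrophil markers summed to 665 to 1082 CPM against 431 to 819 CPM, with none called (3 at an unadjusted p under 0.05 and higher by edgeR). Their part in the difference of Irf5 was not tested.

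Irf8, the relative of Irf5 that binds with PU.1, did not pass the test. It had 12811, 14292 and 15665 counts in MSR1 KO macrophages against 13077, 14947 and 14367 in MSR1 WT macrophages. In CPM these were 357, 359 and 337 against 317, 315 and 348. The genotypes overlapped, since the third MSR1 WT library exceeded the third MSR1 KO library. The log2 fold change was 0.10 with a 95% confidence interval of -0.054 to 0.261 (adjusted p = 0.48 by edgeR with Benjamini-Hochberg adjustment), which does not contain the estimate of 0.60 for Irf5. Irf8 had the smallest spread of the 9 factors among the MSR1 KO libraries, with a coefficient of variation of 3.44% against 12.5% for Irf5. Irf8 (ENSMUSG00000041515.9) lies on the plus strand of chromosome 8 from 120736358 to 120756694, 81.1 Mb from Msr1 on the same chromosome, and shares no exon bases with another gene.

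The upstream sequences of both IRF genes are shown because Irf5 is the factor that rose and Irf8 is its closest relative among the 9. They are the 250 bases before the RefSeq start in GRCm38.p6 on the gene's strand, at chr6:29526375-29526624 for Irf5 and chr8:120736108-120736357 for the first of the Irf8 starts, and no letters are in capitals because none of the motifs searched was found in them.
Irf5: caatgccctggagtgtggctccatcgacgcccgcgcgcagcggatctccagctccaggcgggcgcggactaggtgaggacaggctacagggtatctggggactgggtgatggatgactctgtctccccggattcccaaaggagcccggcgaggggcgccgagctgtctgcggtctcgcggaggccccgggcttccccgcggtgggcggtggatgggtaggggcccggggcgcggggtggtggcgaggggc
Irf8: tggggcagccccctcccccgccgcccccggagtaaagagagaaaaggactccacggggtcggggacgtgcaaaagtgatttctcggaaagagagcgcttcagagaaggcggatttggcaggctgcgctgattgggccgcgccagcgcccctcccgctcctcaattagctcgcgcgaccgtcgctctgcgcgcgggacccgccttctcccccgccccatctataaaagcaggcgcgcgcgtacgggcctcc
Both are rich in G and C, at 72% for Irf5 and 67.2% for Irf8. The 5 motifs, each read on both strands, were the PU.1 box GAGGAAGT (in 2.44% of the 32851 RefSeq promoters of this length), the IRF element (GAAA, then NN, then GAAA, in 2.98%), the C/EBP site TTGCNNAA (9.56%), the MAF core TGCTGA (16.1%) and the E-box CACGTG (6.02%). The second Irf8 start had a MAF core 157 bases before it. Cebpa and Cebpb had none of the 5. The absence of a match covers only these letters in this window.

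Spi1, the gene for PU.1, had 10476, 14000 and 17166 counts in MSR1 KO macrophages against 10826, 13581 and 11258 in MSR1 WT macrophages. After scaling these were 292, 352 and 369 CPM against 263, 286 and 273 CPM. The 3 MSR1 KO libraries were the 3 highest, and the first of them was close to the second MSR1 WT library. The level was 338 ± 40.7 CPM against 274 ± 11.9 CPM (SD, n = 3 each), or a log2 fold change of 0.30 (SE 0.0952) that did not pass (adjusted p = 0.13 by edgeR with Benjamini-Hochberg adjustment). Over the alternative fits it stayed between 0.24 and 0.40, with adjusted p between 0.057 and 0.33 (edgeR and DESeq2). Spi1 (ENSMUSG00000002111.8) lies on the plus strand of chromosome 2 from 91082390 to 91115756 and shares no exon bases with another gene.

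Cebpb had 7518, 9288 and 12311 counts in MSR1 KO macrophages against 7766, 8974 and 6827 in MSR1 WT macrophages, or 209, 233 and 265 CPM against 188, 189 and 165 CPM. All MSR1 KO libraries were above all MSR1 WT libraries. The level was 236 ± 27.9 CPM against 181 ± 13.6 CPM (SD, n = 3 each) and the log2 fold change 0.38 (SE 0.101), with an adjusted p of 0.074 by edgeR's quasi-likelihood test with Benjamini-Hochberg adjustment. DESeq2's Wald test called it (adjusted p = 0.012), and over all alternatives the adjusted p ran up to 0.18 (edgeR). Cebpb (ENSMUSG00000056501.3), a gene on the plus strand of chromosome 2 from 167688915 to 167690418, shares 20.7% of its exon bases with Tmem189 on the other strand. Tmem189, the gene of a plasmalogen-synthesizing desaturase, had 218 ± 48.4 CPM in MSR1 KO and 171 ± 35.6 CPM in MSR1 WT macrophages (log2 fold change 0.35, adjusted p = 0.38 by edgeR), the same direction as Cebpb. Reads of the shared stretch cannot be assigned here.

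Cebpa had 6887, 9592 and 13043 counts in MSR1 KO macrophages against 8706, 12205 and 11504 in MSR1 WT macrophages. The CPM values of 192, 241 and 281 against 211, 257 and 278 overlapped throughout, and within both genotypes the first library was the lowest. Its coefficient of variation was 18.7% among the MSR1 KO and 13.8% among the MSR1 WT libraries. The log2 fold change was -0.07 with a 95% confidence interval of -0.409 to 0.277 (adjusted p = 0.87 by edgeR with Benjamini-Hochberg adjustment), and its sign turned when the first MSR1 KO library or the third MSR1 WT library was left out (0.07 and 0.02). Cebpa (ENSMUSG00000034957.10) lies on the plus strand of chromosome 7 from 35119293 to 35121928, and 1.93% of its exon bases are shared with Gm45091 on the other strand.

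Maf was the most abundant of the 9 factors in CPM, with 44427, 44686 and 63652 counts in MSR1 KO macrophages against 50918, 51767 and 48823 in MSR1 WT macrophages. The values of 1237, 1122 and 1369.5 CPM against 1235, 1091 and 1182 CPM overlapped, and the third MSR1 KO library was the highest. The log2 fold change was 0.09 with a 95% confidence interval of -0.112 to 0.288 (adjusted p = 0.66 by edgeR with Benjamini-Hochberg adjustment). Maf (ENSMUSG00000055435.6) lies on the minus strand of chromosome 8 from 115682942 to 115707794, 76 Mb from Msr1, and 5.34% of its exon bases are shared with Gm15655.

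Bhlhe41 and Bhlhe40, the E-box repressors, were the factors with the lowest fold values. Bhlhe41 had 1241, 1185 and 1805 counts in MSR1 KO macrophages against 2034, 2260 and 1822 in MSR1 WT macrophages, which is 34.6, 29.8 and 38.8 CPM against 49.3, 47.6 and 44.1 CPM. Every MSR1 KO library was below every MSR1 WT library. The level was 34.4 ± 4.54 CPM against 47.0 ± 2.67 CPM (SD, n = 3 each). The log2 fold change was -0.45 (SE 0.11, 95% confidence interval -0.703 to -0.200), with an adjusted p of 0.057 by edgeR's quasi-likelihood test with Benjamini-Hochberg adjustment. It was called by DESeq2's Wald test (adjusted p = 0.0082), by edgeR on genes with at least 10 counts in every library (adjusted p = 0.048) and by edgeR with library size alone (adjusted p = 0.042), and over all alternatives the adjusted p ran up to 0.19. Bhlhe41 (ENSMUSG00000030256.11) lies on the minus strand of chromosome 6 from 145858243 to 145865558, and 19% of its exon bases are shared with the transcript Gm43909 on the other strand. Gm43909 had 6.89 ± 0.797 CPM against 9.59 ± 0.643 CPM, also lower in every MSR1 KO library than in any MSR1 WT library (log2 fold change -0.48, adjusted p = 0.11 by edgeR). Reads of that stretch cannot be assigned to either gene here.

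Bhlhe40 had 489, 423 and 433 counts in MSR1 KO macrophages against 740, 642 and 690 in MSR1 WT macrophages. After scaling, the values of 13.6, 10.6 and 9.32 CPM against 17.9, 13.5 and 16.7 CPM overlapped at 1 point, where the first MSR1 KO library was level with the second MSR1 WT library. The level was 11.2 ± 2.20 CPM against 16.1 ± 2.28 CPM (SD, n = 3 each). The log2 fold change of -0.52 (SE 0.174) was larger in size than that of Bhlhe41, but its error was wider and it did not pass (adjusted p = 0.14 by edgeR with Benjamini-Hochberg adjustment). Bhlhe40 (ENSMUSG00000030103.11) lies on the plus strand of chromosome 6 from 108660629 to 108666925, and 2.51% of its exon bases are shared with 0610040F04Rik.

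Klf4 was the least abundant factor, with 236, 307 and 272 counts in MSR1 KO macrophages against 270, 313 and 295 in MSR1 WT macrophages. The values were 6.57, 7.71 and 5.85 CPM against 6.55, 6.60 and 7.14 CPM, so that the highest and the lowest library were both MSR1 KO. The log2 fold change of -0.01 had a 95% confidence interval of -0.370 to 0.347 (adjusted p = 0.98 by edgeR with Benjamini-Hochberg adjustment). Its sign turned without the first MSR1 KO library (0.01), the third MSR1 KO library (0.08) or the third MSR1 WT library (0.03). Klf4 (ENSMUSG00000003032.8) lies on the minus strand of chromosome 4 from 55527143 to 55532466 and shares no exon bases with another gene.

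The E-box CACGTG, the sequence that BHLHE40 and BHLHE41 bind, was found upstream of 2 of the 6 factors with a RefSeq promoter entry (Cebpa, Cebpb, Irf5, Irf8, Klf4 and Bhlhe41), namely Klf4 and Bhlhe41 itself. Their windows of 30 bases are shown on the gene's strand with the E-box in capitals, at chr4:55532640-55532669 for Klf4 and chr6:145865556-145865585 for Bhlhe41 (RefSeq, GRCm38.p6).
Klf4: cgcccccgccccCACGTGcgcggagtttgt
Bhlhe41: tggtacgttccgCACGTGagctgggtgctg
The E-box began 182 bases before the Klf4 start and 153 bases before the Bhlhe41 start. RefSeq places the Bhlhe41 start inside the span given above and the Klf4 start just outside the span of Klf4. The bases after this Klf4 start did not match a transcript. The flanking bases differ between the windows, and the match is a description of the sequence only. Neither Klf4 nor Bhlhe41 passed the test, with log2 fold changes of -0.01 and -0.45.

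Ratios between related factors were compared library by library, since a ratio within a library does not depend on its scaling. The ratio of Irf8 to Irf5 counts was 1.69, 1.62 and 1.95 in MSR1 KO macrophages and 2.21, 2.46 and 2.73 in MSR1 WT macrophages, without overlap. Its mean log2 value was 0.81 ± 0.137 against 1.30 ± 0.152 (SD), a difference of -0.49 (two-sided exact permutation test, p = 0.1, 0.2 after Benjamini-Hochberg adjustment over 4 ratios, of which 3 are reported). The smallest p that this test can give with 3 against 3 libraries is 0.1. The ratio of Cebpb to Cebpa was 1.09, 0.968 and 0.944 against 0.892, 0.735 and 0.593, also without overlap, and its mean log2 value differed by 0.45 (exact permutation p = 0.1, 0.2 after the same adjustment). The ratio of Bhlhe41 to Bhlhe40 was 2.54, 2.80 and 4.17 against 2.75, 3.52 and 2.64 (log2 difference 0.07, exact permutation p = 0.8, adjusted 0.8). The libraries of both genotypes were thus apart in the IRF and C/EBP pairs and overlapped in the BHLHE pair.

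**Figure D4:**
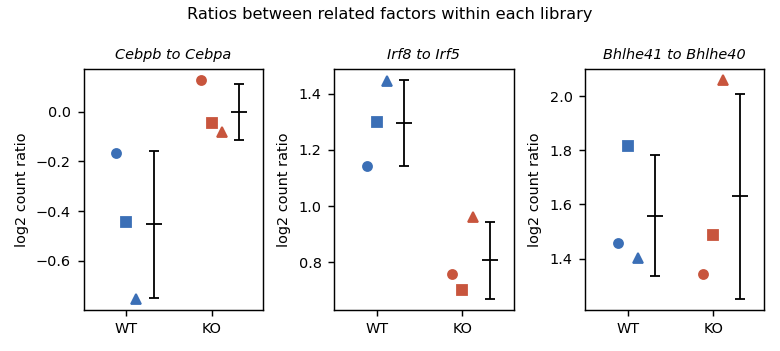
Log2 ratio of counts within each library for 3 pairs of related factors, with each axis fitted to its own pair. Circles, squares and triangles are the first, the second and the third library of each genotype, and bars are the mean and SD of 3 libraries. The genotypes are apart for Irf8 to Irf5 (means 0.81 and 1.30) and for Cebpb to Cebpa, and they overlap for Bhlhe41 to Bhlhe40.

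Genes known to be bound or switched on by these factors were read next, from lists written from general knowledge. Of 24 PU.1 target genes, 4 were higher and 2 were lower by edgeR's quasi-likelihood test with Benjamini-Hochberg adjustment. The shares of all tested genes were 2.25% and 2.66%. The median log2 fold change of the 24 was 0.06. At an unadjusted p under 0.05, 9 were higher and 5 lower (8.65% and 10.2% of all tested genes). DESeq2 called 6 higher and 2 lower (4.57% and 5.38% of the genes to which it gave an adjusted p). Fcgr1, the high-affinity receptor for IgG, had 563 ± 48.8 CPM against 256 ± 68.9 CPM (log2 fold change 1.14, adjusted p = 0.018 by edgeR), the largest difference among the 4 genes called higher. Lsp1, an actin-binding protein of leukocytes, had a value of 0.59 on the log2 fold scale (adjusted p = 0.037 by edgeR), and Ptprc was also called higher. Blnk, an adaptor of immune receptor signalling, fell by 0.66 on the log2 scale (adjusted p = 0.04 by edgeR), and Msr1 was the other gene called lower. Msr1 is the gene that the genotype labels name, so its call restates the genotype. The lower counts and the median of this list include Msr1. The most abundant targets did not pass. Csf1r, the receptor for M-CSF, had 4539 ± 24.3 CPM against 4413 ± 88.1 CPM (log2 fold change 0.04), and Lyz2, lysozyme, had 13398 ± 654 CPM against 14912 ± 1436 CPM (log2 fold change -0.15). The count of 4 higher genes went to 0 without the first MSR1 KO or the first MSR1 WT library, to 1 without the second library of either genotype and to 2 without the third library of either genotype. Blnk kept its call without the second MSR1 KO library and lost it without any other library (adjusted p up to 0.14 by edgeR) and with no filter on low counts (adjusted p = 0.055). The count of 2 lower genes went to 1, Msr1, without the first or the third library of either genotype. Without the second MSR1 WT library it stayed at 2, since Tlr4, described below, was called lower (adjusted p = 0.037 by edgeR) and Blnk was not.

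Of 18 tested C/EBP target genes, none was called by edgeR, with 7 higher and 0 lower at an unadjusted p under 0.05 (8.65% and 10.2% of all tested genes) and 1 higher by DESeq2. With DESeq2's size factors, at least 10 counts in every library, or the third MSR1 WT library left out, edgeR called 1 higher. Their median log2 fold change was 0.25. Il6ra, a receptor chain for interleukin 6, had 306 ± 5.89 CPM against 270.0 ± 5.20 CPM (log2 fold change 0.18, adjusted p = 0.14 by edgeR with Benjamini-Hochberg adjustment).

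Of 17 tested targets of IRF5 and IRF8, edgeR called 4 higher and none lower, against 2.25% and 2.66% of all tested genes. The median log2 fold change of the 17 was 0.44 against -0.00 over all genes. At an unadjusted p under 0.05, 8 were higher and 1 was lower (8.65% and 10.2% of all tested genes). DESeq2 called 6 higher and 0 lower (4.57% and 5.38% of the genes to which it gave an adjusted p). Il12a, Il12b, Il23a, Il6 and Ifnb1, cytokine genes often tied to IRF5, had too few counts to be tested. Tnf, another cytokine gene of the list, was tested and did not pass (log2 fold change 0.08, adjusted p = 0.88 by edgeR). The interferon-induced chemokine gene Cxcl10 had 9.27 ± 1.67 CPM against 3.86 ± 1.13 CPM (log2 fold change 1.27, adjusted p = 0.027 by edgeR with Benjamini-Hochberg adjustment). Tlr9, the receptor for unmethylated DNA, rose from 163 ± 23.7 to 280.3 ± 45.7 CPM (log2 fold change 0.78, adjusted p = 0.026 by edgeR). Il18, an inflammasome cytokine, rose by 0.71 on the log2 scale (adjusted p = 0.027 by edgeR) and Ctsc, the lysosomal cathepsin C, by 0.54 (adjusted p = 0.035 by edgeR). Ctss, cathepsin S, had 3284 ± 154 CPM against 2546 ± 435 CPM and did not pass (adjusted p = 0.13 by edgeR).

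Of 18 genes of the pathway that activates IRF5, edgeR called 4 higher and none lower, against 2.25% and 2.66% of all tested genes. The median log2 fold change of the 18 was 0.12. At an unadjusted p under 0.05, 6 were higher and 1 was lower (8.65% and 10.2% of all tested genes). DESeq2 called 6 higher and 0 lower (4.57% and 5.38% of the genes to which it gave an adjusted p). Those called higher by edgeR were Tlr9 again, Myd88, Lyn and Trim21. The adaptor gene Myd88 rose by 0.45 on the log2 scale (adjusted p = 0.029 by edgeR with Benjamini-Hochberg adjustment). The kinase gene Lyn rose by 0.43 (adjusted p = 0.033) and the ubiquitin ligase gene Trim21 by 0.64 (adjusted p = 0.023), both by edgeR. MYD88 carries the signal of most Toll-like receptors to IRF5, whereas LYN is known to restrain IRF5 and TRIM21 to alter its stability. Unc93b1, the chaperone of endosomal Toll-like receptors, had 1668 ± 76.4 CPM against 1377 ± 60.8 CPM and did not pass (adjusted p = 0.052 by edgeR). Tlr9 counts in both lists. The count of 4 in either list went to 0 without the first MSR1 KO, the first MSR1 WT or the second MSR1 WT library, and without the second MSR1 KO library it went to 0 for the targets and 1 for the pathway. It was 2 for the targets and 3 for the pathway without the third MSR1 KO library, and 5 and 4 without the third MSR1 WT library. Tlr4, the receptor for lipopolysaccharide, is in both lists and the PU.1 list and is named after its values were seen. It had 49.1, 28.7 and 21.3 CPM in MSR1 KO against 122, 36.3 and 135.8 CPM in MSR1 WT macrophages, so the genotypes overlapped and the second MSR1 WT library was far below the other two. Its log2 fold change was -1.57, a DEG as the study defines it, but it did not pass (adjusted p = 0.11 by edgeR with Benjamini-Hochberg adjustment). Without the second MSR1 WT library it was called lower (-1.97, adjusted p = 0.037 by edgeR), the 1 lower gene of both IRF lists in that fit.

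Of 18 Maf-associated macrophage genes, 3 were lower and none was higher by edgeR's adjusted p, against 2.66% and 2.25% of all tested genes. The median log2 fold change of the 18 was -0.21. At an unadjusted p under 0.05, 10 were lower and 5 higher (10.2% and 8.65% of all tested genes). DESeq2 called 5 lower and 4 higher (5.38% and 4.57% of the genes to which it gave an adjusted p). F13a1, coagulation factor XIII subunit A, fell by 1.29 on the log2 scale, from 342 ± 69.5 CPM in MSR1 WT to 140.3 ± 15.8 CPM in MSR1 KO macrophages (adjusted p = 0.0084 by edgeR with Benjamini-Hochberg adjustment). Stab1, the scavenger receptor stabilin-1, had 1557 ± 118 CPM against 2292 ± 271 CPM (log2 fold change -0.56, adjusted p = 0.025 by edgeR). Mrc1, the mannose receptor CD206, had 1481 ± 98.4 CPM against 1937 ± 157 CPM (log2 fold change -0.39, adjusted p = 0.037 by edgeR). Maf itself did not pass (log2 fold change 0.09). C1qb, of the complement C1q complex, had 2283 ± 242 CPM against 1879.6 ± 26.6 CPM, in the other direction, and did not pass (adjusted p = 0.10 by edgeR). Selenop, a selenium transport protein and the most abundant of the list, had 5322 ± 525 CPM against 6304 ± 423 CPM (adjusted p = 0.17 by edgeR). The count of 3 went to 1, F13a1, when any library but the third MSR1 WT library was left out.

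Of 12 KLF4-associated genes, edgeR called 1 higher and 1 lower, against 2.25% and 2.66% of all tested genes. The median log2 fold change of the 12 was 0.14. DESeq2 called 1 higher and 2 lower (4.57% and 5.38% of the genes to which it gave an adjusted p). At an unadjusted p under 0.05, 4 were higher and 2 lower (8.65% and 10.2% of all tested genes). Il4ra, the receptor chain for interleukin 4, had 384 ± 23.3 CPM against 301 ± 7.04 CPM (log2 fold change 0.35, adjusted p = 0.03 by edgeR with Benjamini-Hochberg adjustment). The gene called lower was Mrc1, which stands in the Maf list as well. Il4ra kept its call without the third MSR1 KO library and lost it without any other library, whereas Mrc1 kept it without the third MSR1 WT library and lost it without any other.

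Of 20 clock genes and BHLHE partners, none was called by edgeR, with 0 higher and 7 lower at an unadjusted p under 0.05 (8.65% and 10.2% of all tested genes) and 1 lower by DESeq2. With at least 10 counts in every library or with library size alone, edgeR called 1 lower. Their median log2 fold change was -0.23. Nr1d2, the clock repressor REV-ERBβ, had 76.0 ± 2.01 CPM against 89.3 ± 6.72 CPM (log2 fold change -0.23, adjusted p = 0.15 by edgeR with Benjamini-Hochberg adjustment). Ncor1, a corepressor gene, had 239.7 ± 14.5 CPM against 242 ± 2.69 CPM (log2 fold change -0.01). Of 44 other tested myeloid transcription factor genes, none was called by edgeR. At an unadjusted p under 0.05, 9 were higher and 2 lower (8.65% and 10.2% of all tested genes), and DESeq2 called 2 higher. Without the third MSR1 KO library, edgeR called 1 higher. Zeb2, a repressor that macrophages need to keep their tissue identity, was among the most abundant of them, at 665 ± 48.2 CPM against 724 ± 8.52 CPM (adjusted p = 0.40 by edgeR with Benjamini-Hochberg adjustment).

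**Figure D5:**
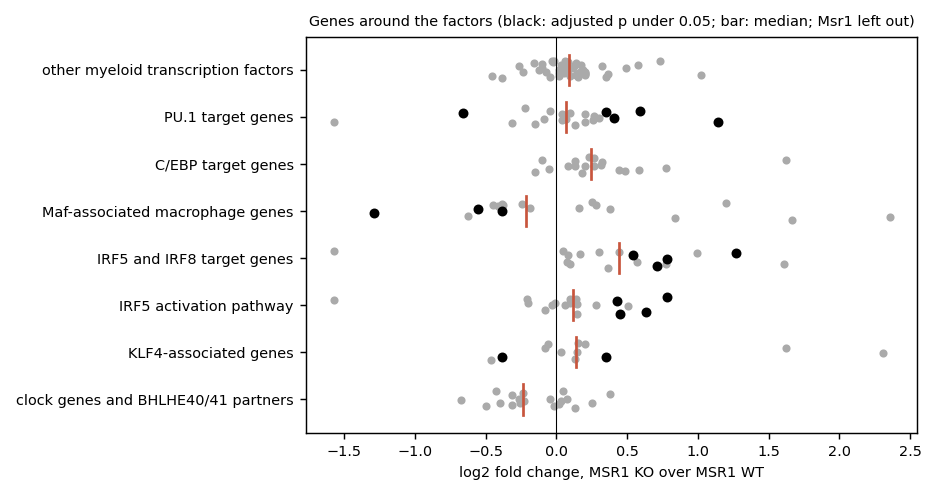
Log2 fold change (MSR1 KO over MSR1 WT) of each tested gene in the 8 lists around the factors. Each point is a gene, black points have an adjusted p under 0.05, the red bar is the median of the plotted genes, and Msr1 is left out of the PU.1 list. The median is highest for the IRF5 and IRF8 targets (0.44) and lowest for the clock genes (-0.23).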

How the data were processed

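RNA-seq counts of 3 MSR1 KO and 3 MSR1 WT libraries were analysed, with groups taken from the sample labels. The authors deposited raw counts per gene, so no unit other than counts was tested. Beside them the deposited table gives signal values (each count divided by a size factor), and the authors' log2 fold change, p-value and adjusted p-value, none of which was used. The submitters' processing notes name fastp 0.17.1, HISAT2 2.1.0, DESeq2 1.18.1 and R 3.4.3, whereas the paper's methods name TopHat and FPKM values. The program that counted reads, whether it used strand, and the genome build are not given in the sources used here. Of 52550 gene identifiers, 49909 had the same position in the GENCODE M21 annotation of GRCm38, which was used for positions and exon lengths. All 37 mitochondrial genes were at 0 counts. A read that fits more than one gene may be lost or split in such counts.

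Counts were filtered with filterByExpr, scaled by TMM and tested with the quasi-likelihood test of edgeR 4.0.16 (R 4.3.3) over 16402 genes, with Benjamini-Hochberg adjustment over all of them and a threshold of 0.05. Each standard error is the log2 fold change divided by the square root of the F statistic. Ratios within libraries were compared by a two-sided exact permutation test. Total counts ranged from 36143518 to 47417448. No pair of libraries agreed within sampling noise. The methods were tested on simulated data. Alternatives were DESeq2 1.42.0 (Wald test, or its size factors in edgeR), library size alone, other filters on low counts, a block for the replicate number, leaving out each library, 1 count added to both genes of a ratio, and the longest transcript as length. Genes named were the 9 factors, Msr1, genes sharing exon bases with a factor and, of each list, up to 4 called genes with the largest change and the 2 most abundant genes. Ptprc, Tlr4 and the called marker genes belong to counts of 5 or fewer and were named after their values were seen. Tnf was also named after its values were seen. The factors and lists were chosen with earlier results of these data known, and the lists come from general knowledge of these factors. Promoter sequences were the 250 bases before each RefSeq start, and 6 of the 9 factors had an entry. Some genes and 1 ratio that the rule would name are not reported here.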

Additional observations from a re-analysis of the deposited data

How the results depend on the processing

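Of the 9 factors, 1 was called higher and none lower by edgeR. DESeq2 called 2 higher and 1 lower, at least 10 counts in every library gave 1 lower, library size alone gave 1 lower and 0 DEGs, and the other filter and DESeq2's size factors changed neither count. With each library left out in turn, 0 to 1 factors were called higher and 0 to 1 were DEGs. Over all genes, 369 higher and 436 lower calls became 720 and 848 with DESeq2, 237 and 288 with no filter beyond a total count above 0, and 18 to 407 and 53 to 372 with each library left out, the fewest without the first MSR1 WT library. The cause of these shifts was not tested.

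Replicate numbers gave no sign of pairing. Same-numbered libraries had deviations from their group means that correlated at -0.0261, 0.0187 and -0.0048, against -0.0337 to 0.0367 for different numbers. Whether the libraries were paired is not settled by these values. With the replicate block, 0 factors, 59 higher and 78 lower genes were called, and Irf5 stood at 0.59 on the log2 scale (adjusted p = 0.055 by edgeR). With each library left out, the log2 fold change ran from -0.197 to 0.0739 for Cebpa, from -0.124 to 0.0842 for Klf4 and from -0.0392 to 0.0385 for Ncor1, and the difference in the log2 ratio of Bhlhe41 to Bhlhe40 from -0.1435 (without the third MSR1 KO library) to 0.2144. No scaling turned the sign of a factor, and library size alone moved the median of all genes to -0.03. Klf4 and Bhlhe40 had the fewest counts of the 9 factors, and whether depth limits their precision was not tested.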
